A study of Mus musculus with 9 samples.

Results

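The glycolytic enzymes described here were Hk1, Hk2, Gpi1, Pfkl, Pfkp, Aldoa, Aldoc, Pgk1, Pgam1 and Ldha, 10 genes chosen by name. A probe set, the group of short probes on the array that reads 1 transcript, counted for a gene when its annotation gave that symbol and no other. By this rule 9 of the 10 genes were measured, on 18 probe sets, out of 12393 genes that the same rule finds on the array. Gpi1, which converts glucose phosphate to fructose phosphate, had no such probe set and was not analysed here.

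Glycolysis breaks glucose down to pyruvate in the cytosol and yields ATP without oxygen. Hexokinases trap glucose in the cell, phosphofructokinase commits the sugar to the pathway, aldolase splits it, and the lower enzymes recover ATP before lactate dehydrogenase turns pyruvate into lactate and regenerates the cofactor NAD. Several steps are served by isozymes from separate genes, many of these genes are targets of the hypoxia-inducible transcription factors, and high glycolysis is a well-known trait of tumors and of dividing cells.

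RNA from 3 kinds of mouse culture was hybridized to 9 MOE430A arrays, 3 per culture. Tumorspheres (TMS) were floating spheres established from mammary tumors of MMTV-Neu [N2O2] mice, in which the MMTV promoter drives the Neu transgene in the mammary epithelium, and the 3 cultures came from independent tumors. Mammospheres (MMS) came from the glands of virgin FVB/N females 6 to 8 weeks old and were kept in the stem cell medium used for TMS. Both kinds of sphere were harvested between passages 3 and 5. Mammospheres induced to differentiate (diffMMS), also FVB/N, were dissociated, plated on collagen and kept for 7 days in medium with serum, so that they differed from MMS in attachment as well as in medium. The labels give no strain for TMS, but the methods name FVB/N mice as syngeneic hosts of the tumor cells. The age of the tumor donors and the number of mice behind a culture are not given in the sources used here. The methods call the populations of each group independent or separate. Whether a diffMMS preparation was made from a profiled MMS culture is not given, and p-values measure the spread between these samples.

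Arrays are named by the codes in their labels. TMS arrays carry 1099A, 1100A and 1101A, diffMMS arrays 861A, 862A and 863A, and MMS arrays 858A, 859A and 860A, and values per array are given in that order. No label calls the runs of codes batches. The run of codes and the TMS group cannot be told apart, whereas diffMMS and MMS lie in 1 run. All levels are log2 values of the quantile-normalized intensity after 8.67 was added, and differences between groups are log2 fold changes on that scale, which understate the change of dim probe sets. Array medians of the deposited intensities lay between 84.0 and 88.6. Each probe set has its own brightness, so a level was compared between cultures and never between genes. Since the arrays read bulk RNA, fewer cells of a type and less RNA per cell cannot be told apart.

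The upstream sequences of 4 members that hold the core of the hypoxia response element are shown. Pfkl and Aldoc had wide differences, and Pgk1 and Ldha were among the members whose calls changed when 1 array was left out. The sequences are from RefSeq (GRCm38.p6) and cover the 250 bases before the first listed transcription start, written 5′ to 3′ on the gene's strand. Capitals mark ACGTG or GCGTG read on either strand, so that they can also appear as CACGT or CACGC, and overlapping matches run together. Pfkl is on the minus strand (chr10:78009808-78010057), and the other 3 are on the plus strand (Aldoc chr11:78322823-78323072, Pgk1 chrX:106186850-106187099, Ldha chr7:46845554-46845803).
Pfkl: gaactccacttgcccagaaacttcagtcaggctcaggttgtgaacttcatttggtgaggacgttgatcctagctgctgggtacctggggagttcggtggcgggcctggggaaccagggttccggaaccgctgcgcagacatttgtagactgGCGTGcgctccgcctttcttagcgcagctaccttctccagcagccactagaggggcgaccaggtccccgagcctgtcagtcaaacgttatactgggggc
Aldoc: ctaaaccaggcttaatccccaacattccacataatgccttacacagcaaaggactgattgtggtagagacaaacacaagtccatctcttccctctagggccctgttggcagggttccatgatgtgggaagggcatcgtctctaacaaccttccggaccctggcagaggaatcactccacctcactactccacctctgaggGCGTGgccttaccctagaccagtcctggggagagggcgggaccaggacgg
Pgk1: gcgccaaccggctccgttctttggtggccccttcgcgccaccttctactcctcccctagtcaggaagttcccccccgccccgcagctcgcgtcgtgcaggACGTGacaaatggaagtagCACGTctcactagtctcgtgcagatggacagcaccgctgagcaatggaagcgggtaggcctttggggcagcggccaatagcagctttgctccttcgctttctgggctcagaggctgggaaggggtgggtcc
Ldha: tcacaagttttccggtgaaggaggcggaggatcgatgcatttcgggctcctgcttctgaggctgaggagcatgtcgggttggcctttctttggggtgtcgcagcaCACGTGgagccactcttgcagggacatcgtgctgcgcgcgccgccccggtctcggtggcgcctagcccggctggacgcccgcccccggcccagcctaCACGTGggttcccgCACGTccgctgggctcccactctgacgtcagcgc
The Pfkl and Aldoc windows each held 1 GCGTG match, and Pgk1 held 2 ACGTG matches. Ldha held 3 separate stretches, 2 of them the palindrome CACGTG, which reads ACGTG on both strands. Aldoc and Ldha also have a second listed start, not shown above. In each gene the window before that start held 1 GCGTG match and 0 ACGTG matches. ACGTG or GCGTG occurred upstream of 9 of the 10 member genes and in 12 of their 15 listed promoters, against 38.6% of all 32851 promoters in the table. ACGTG was in 16.6% and GCGTG in 28.2% of all promoters, some of which held both. A match is a description of the letters and not a binding site.

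In TMS against MMS, 4 of the 9 measured members were called higher (Hk1, Pfkl, Aldoa and Aldoc), at an adjusted p under 0.05 in limma over 22626 probe sets. No member was lower, also at an unadjusted p under 0.05, where 6 were higher. Of all genes 6.22% were called higher and 7.14% lower in that comparison. The members' median log2 fold change was 0.28, beside 0.00 for all genes, and it was 0.20 with the values as deposited and 0.16 with arrays centred on their medians. In TMS against diffMMS, 4 members were again higher (Hk1, Hk2, Pfkp and Aldoc) and 0 lower, with 4 and 0 at an unadjusted p under 0.05. The background was 12.3% of genes higher and 12.6% lower, and the members' median was 0.00, beside -0.03 for all genes. In diffMMS against MMS, Pfkl, Aldoa, Pgk1 and Ldha were higher and Pfkp was lower, where 17.9% of all genes were called higher and 16.2% lower. The median of the members was 0.30, beside 0.05 for all genes, and it was 0.17 with the values as deposited and 0.12 with arrays centred on their medians. The comparisons share arrays and are not independent of each other. Hk1 and Aldoc were called higher in TMS against each of the other cultures, Pfkl and Aldoa were called higher in each of TMS and diffMMS against MMS, and Pgam1 passed no test.

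**Figure D1:**
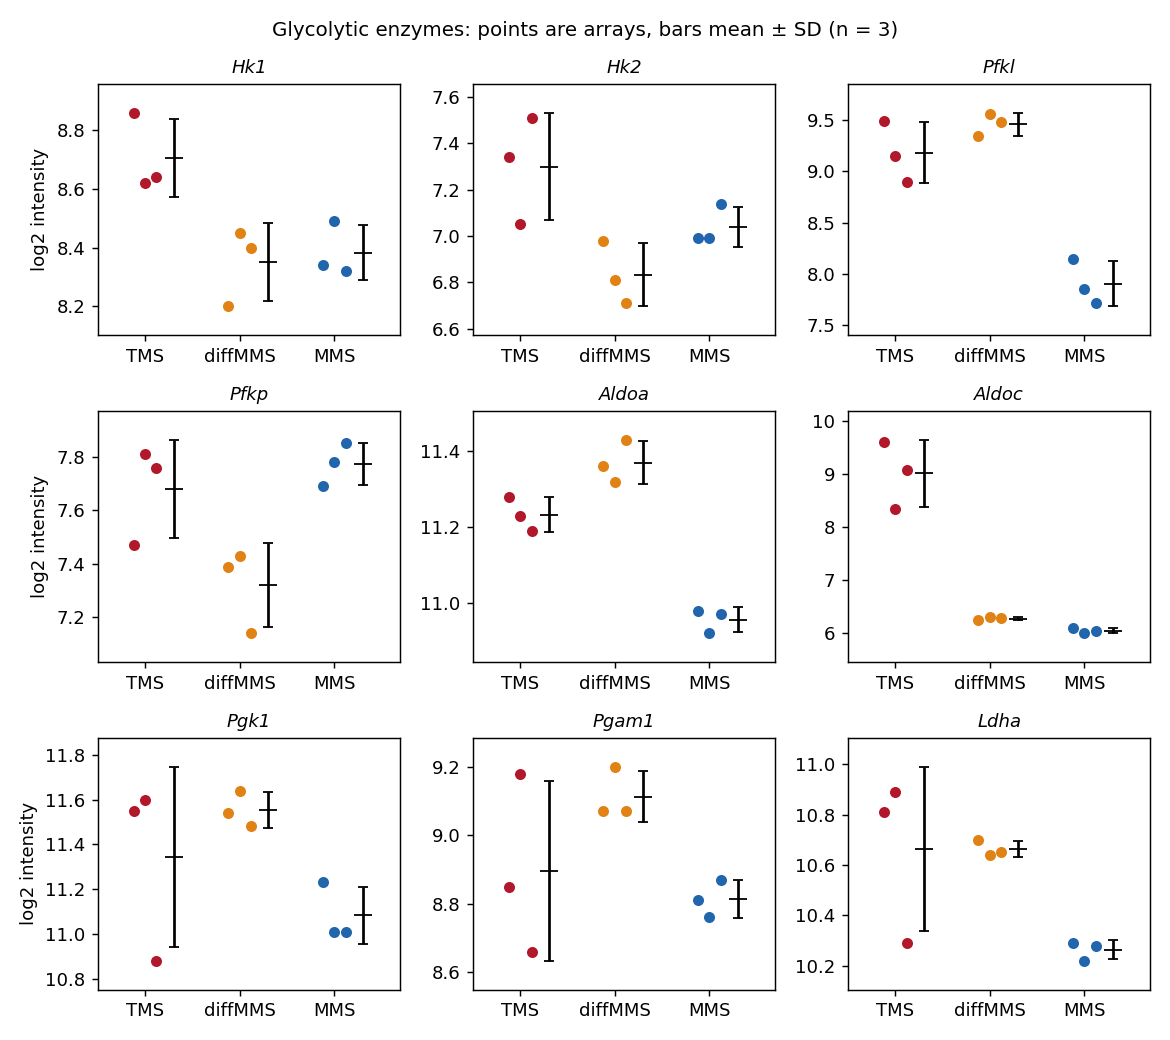
Log2 intensity (quantile normalized, 8.67 added) of the 9 measured glycolytic genes on each of the 9 arrays, at the probe set of the highest mean, with the mean ± SD of each group (n = 3) beside its points; each panel has its own axis. Aldoc lay between 8.34 and 9.60 in TMS and at 6.29 or below in diffMMS and MMS, and Pfkl was lower on the 3 MMS arrays than on the other 6.

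The first step of the pathway held small differences, with both hexokinases higher in TMS than in diffMMS. Hk1, the hexokinase found in most tissues, had 8.86, 8.62 and 8.64 in TMS, 8.20, 8.45 and 8.40 in diffMMS, and 8.34, 8.49 and 8.32 in MMS (probe set 1437974_a_at). Every TMS array lay above every diffMMS and MMS array. The Hk1 log2 fold change was 0.32 in TMS against MMS (95% interval 0.12 to 0.53, adjusted p = 0.0409) and 0.36 in TMS against diffMMS (adjusted p = 0.0172). The diffMMS to MMS difference was -0.03 (adjusted p = 0.818). The other Hk1 probe set, 1420901_a_at, was also higher in TMS than in MMS by 0.45 (adjusted p = 0.0293) and differed by 0.30 between TMS and diffMMS (adjusted p = 0.103). The first of these Hk1 calls was lost when any of 7 arrays was left out (1099A, 1100A, 858A, 859A, 860A, 862A or 863A, adjusted p between 0.0508 and 0.144) and with the values as deposited (adjusted p = 0.139). The call of 1420901_a_at in the same comparison was lost without 1099A, 858A, 859A or 860A (adjusted p between 0.0644 and 0.112) and with centred arrays. The Hk1 call in TMS against diffMMS was lost without 1099A or 861A (adjusted p between 0.0525 and 0.0628).

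Hk2, the hexokinase of muscle and fat that many tumors express, had 7.34, 7.05 and 7.51 in TMS, 6.98, 6.81 and 6.71 in diffMMS, and 6.99, 6.99 and 7.14 in MMS. The TMS arrays lay above all diffMMS arrays, while the TMS and MMS ranges overlapped. Hk2 was higher in TMS than in diffMMS by 0.47 ± 0.115 (SE, adjusted p = 0.0115), a call that leaving out diffMMS array 863A ended (adjusted p = 0.0526). For Hk2 in TMS against MMS the log2 fold change was 0.26 (95% interval 0.01 to 0.51, adjusted p = 0.166), which was called when TMS array 1100A was left out (adjusted p = 0.0384). Hk2 differed by -0.21 in diffMMS against MMS (adjusted p = 0.193).

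Among the isozymes of phosphofructokinase, the committing step, Pfkl was higher and Pfkp was lower in diffMMS against MMS. The muscle-type subunit Pfkm, which is no member, was higher there by 0.33 (adjusted p = 0.00723). Pfkl, the liver-type subunit, had 9.49, 9.15 and 8.90 in TMS, 9.34, 9.56 and 9.48 in diffMMS, and 8.15, 7.85 and 7.72 in MMS. No MMS array reached the lowest array of either other culture. Pfkl was 2.42 times as high in TMS as in MMS (log2 fold change 1.27, 95% interval 0.96 to 1.59, adjusted p = 1.65e-04). It was 2.94 times as high in diffMMS as in MMS (1.56, 95% interval 1.24 to 1.87, adjusted p = 7.58e-06). Both Pfkl calls held under all alternatives run, with log2 fold changes of 1.13 to 1.41 and 1.37 to 1.67. The other Pfkl probe set, 1450269_a_at, gave 1.07 (adjusted p = 2.03e-04) and 1.21 (adjusted p = 1.86e-05). Between TMS and diffMMS the Pfkl difference was -0.28 (adjusted p = 0.183). Without TMS array 1099A, the highest of its group, that Pfkl difference was called (adjusted p = 0.0302).

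Pfkp, the platelet-type subunit, had 7.47, 7.81 and 7.76 in TMS, 7.39, 7.43 and 7.14 in diffMMS, and 7.69, 7.78 and 7.85 in MMS. The diffMMS arrays were the lowest of all, and TMS overlapped with MMS. Pfkp was 0.730 times as high in diffMMS as in MMS (log2 fold change -0.45, 95% interval -0.68 to -0.22, adjusted p = 0.00644), and this call held under all alternatives (-0.56 to -0.33). At its other probe set, 1430634_a_at, the Pfkp difference was -0.21 (adjusted p = 0.0953). Pfkp was higher in TMS than in diffMMS by 0.36 ± 0.106 (SE, adjusted p = 0.0288) and by 0.34 at the other probe set (adjusted p = 0.0198). The first of these was lost without 1100A, 1101A or 863A (adjusted p between 0.0748 and 0.114) and when the fit held only the pair of groups compared (adjusted p = 0.065). The second was lost without 1100A, 861A or 863A (adjusted p between 0.0573 and 0.0793). Pfkp differed by -0.10 in TMS against MMS (95% interval -0.33 to 0.14, adjusted p = 0.626).

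Aldolase held the widest difference among the measured steps. Aldoc, the brain-type aldolase, had 9.60, 8.34 and 9.07 in TMS, 6.24, 6.29 and 6.27 in diffMMS, and 6.09, 5.99 and 6.03 in MMS. The lowest TMS array stood more than 2 log2 units above the highest array of the other cultures. Aldoc was 7.82 times as high in TMS as in MMS (log2 fold change 2.97 ± 0.223 SE, adjusted p = 6.39e-06) and 6.67 times as high in TMS as in diffMMS (2.74, 95% interval 2.25 to 3.22, adjusted p = 2.89e-06). Both calls held under every alternative, with the smallest values, 1.61 and 1.45, when all probe sets of the gene were averaged. Aldoc differed by 0.23 in diffMMS against MMS (adjusted p = 0.459), a difference that was called when TMS was left out of the fit (adjusted p = 0.0219). The other Aldoc probe set, 1424714_at, was dim, with 5.05, 5.02 and 4.89 in TMS and means of 4.84 in diffMMS and 4.74 in MMS. It was higher in TMS than in MMS by 0.24 (adjusted p = 0.0231), and the TMS to diffMMS difference was 0.15 (adjusted p = 0.105). Of the 18 member probe sets it alone was removed by a filter on the dimmest 40% of probe sets.

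Aldoa, the aldolase of muscle and most other tissues, had 11.28, 11.23 and 11.19 in TMS, 11.36, 11.32 and 11.43 in diffMMS, and 10.98, 10.92 and 10.97 in MMS (probe set 1416921_x_at). The MMS arrays were the lowest of the 9, and diffMMS lay above TMS. Aldoa was higher in diffMMS than in MMS by 0.41 (adjusted p = 4.44e-04) and in TMS than in MMS by 0.28 ± 0.0641 (SE, adjusted p = 0.0123). Between TMS and diffMMS it differed by -0.13 (adjusted p = 0.161). The 3 other Aldoa probe sets were higher in diffMMS than in MMS by 0.36 to 0.47, all called. Those 3 probe sets differed between TMS and MMS by 0.18 to 0.34, and only 1433604_x_at was called. The Aldoa call in TMS against MMS was lost without MMS array 859A (adjusted p = 0.0547) and with the values as deposited (0.14, adjusted p = 0.277). All Aldoa probe sets end in the suffix x_at, which marks probes that can also read related transcripts.

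Pgk1, the enzyme of the first ATP-yielding step, had 11.55, 11.60 and 10.88 in TMS, 11.54, 11.64 and 11.48 in diffMMS, and 11.23, 11.01 and 11.01 in MMS (probe set 1438640_x_at). On 2 TMS arrays it was as high as in diffMMS, whereas 1101A was the lowest array of all. Pgk1 was higher in diffMMS than in MMS by 0.46 ± 0.157 (SE, adjusted p = 0.0398). This call was lost without any of 859A, 860A, 861A, 862A and 863A (adjusted p between 0.0672 and 0.123) and with the values as deposited (0.33, adjusted p = 0.0745). Over all alternatives the limma adjusted p of this Pgk1 difference ran from 6.11e-04 to 0.123. Pgk1 differed by 0.26 in TMS against MMS (adjusted p = 0.334), and without 1101A by 0.49 (adjusted p = 0.00256). The same Pgk1 difference was 0.10 with the values as deposited and 0.06 with centred arrays. In TMS against diffMMS Pgk1 differed by -0.21 (adjusted p = 0.368). Probe set 1417864_at was higher in TMS by 0.59 (adjusted p = 0.0135) and in diffMMS by 0.58 (adjusted p = 0.00693) against MMS. Probe set 1439435_x_at was called in no comparison, with differences of 0.05 to 0.11, so that the 3 Pgk1 probe sets disagreed. Of the 3, only 1417864_at lacks the suffix x_at, explained above for Aldoa.

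Pgam1, which moves the phosphate group within phosphoglycerate, had 8.85, 9.18 and 8.66 in TMS, 9.07, 9.20 and 9.07 in diffMMS, and 8.81, 8.76 and 8.87 in MMS. All diffMMS arrays lay above all MMS arrays, and TMS spanned both. The Pgam1 log2 fold change was 0.30 in diffMMS against MMS (95% interval 0.05 to 0.55, adjusted p = 0.0604), 0.09 in TMS against MMS (adjusted p = 0.692) and -0.22 in TMS against diffMMS (adjusted p = 0.196). The diffMMS to MMS difference of Pgam1 was called without 1100A or 1101A (adjusted p between 0.0167 and 0.0188), and the TMS to diffMMS difference without 1100A (adjusted p = 0.0182). With the values as deposited the diffMMS to MMS difference of Pgam1 was 0.10 (adjusted p = 0.463) and with centred arrays 0.06 (adjusted p = 0.723).

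Ldha, the subunit of lactate dehydrogenase that favors lactate formation, had 10.81, 10.89 and 10.29 in TMS, 10.70, 10.64 and 10.65 in diffMMS, and 10.29, 10.22 and 10.28 in MMS. TMS arrays 1099A and 1100A were above every other array, and 1101A was at the level of MMS. Ldha was higher in diffMMS than in MMS by 0.40 ± 0.126 (SE, adjusted p = 0.0308). That Ldha call was lost when any of the 6 arrays of these cultures was left out (adjusted p between 0.062 and 0.0952) and with the values as deposited (0.17, adjusted p = 0.225). Over all alternatives the limma adjusted p of this Ldha difference ran from 3.65e-04 to 0.399. In TMS against MMS Ldha differed by 0.39 (95% interval 0.12 to 0.67, adjusted p = 0.0589), and without 1101A by 0.58 (adjusted p = 2.05e-04). The same Ldha difference was 0.20 with the values as deposited (adjusted p = 0.24) and 0.16 with centred arrays (adjusted p = 0.371). In TMS against diffMMS the Ldha difference was 0.00 (95% interval -0.28 to 0.27, adjusted p = 0.986).

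**Figure D2:**
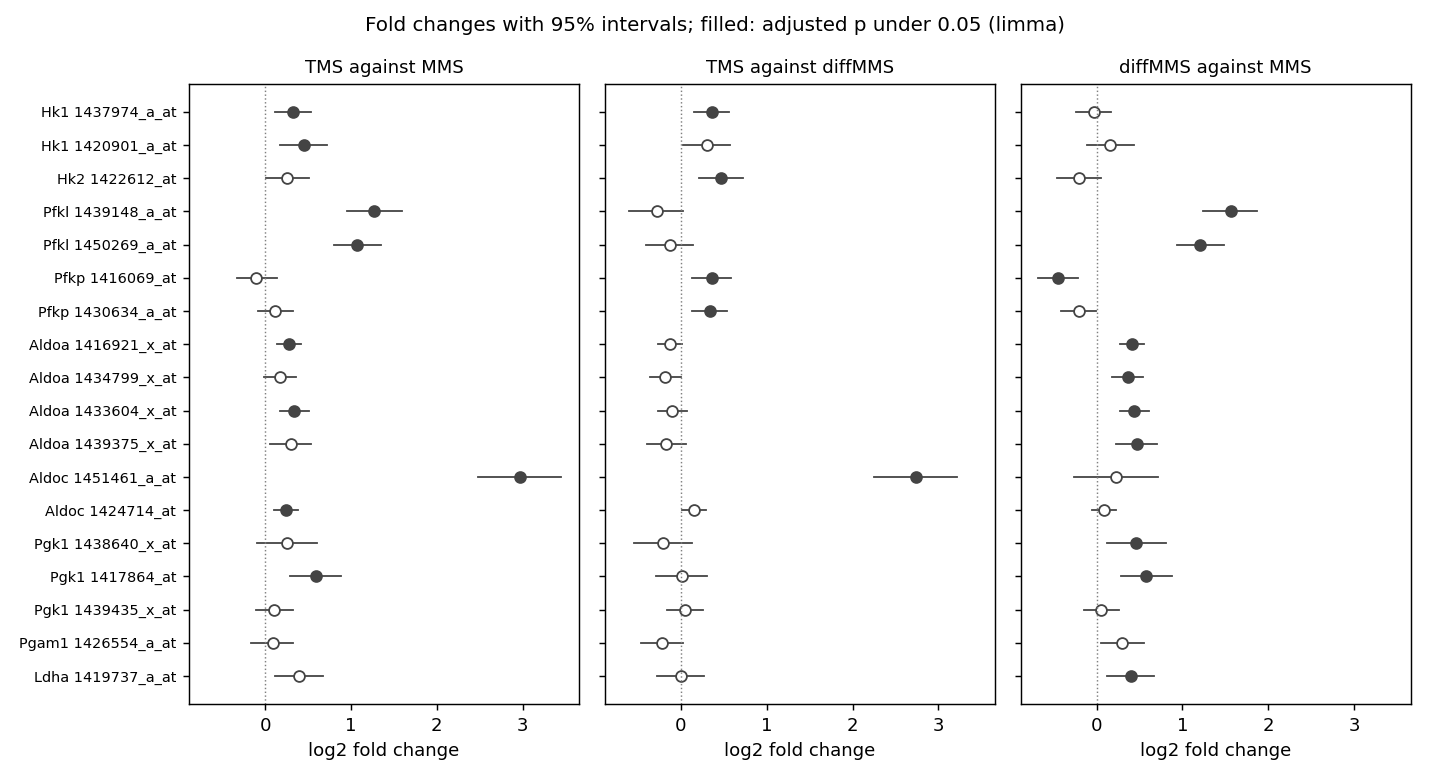
Log2 fold change and 95% interval (limma) of each of the 18 glycolytic probe sets in TMS against MMS, TMS against diffMMS and diffMMS against MMS, with filled points where the adjusted p was under 0.05. Aldoc stood at 2.97 and 2.74 in the TMS comparisons, Pfkl at 1.27 and 1.56 against MMS, and the intervals of Pgam1 and Ldha between TMS and diffMMS crossed 0.

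Whether the isozymes of a step changed unequally was tested on the difference of their log2 levels within each array, taken at the probe set of the highest mean of each gene. Both the size of this difference and its change between cultures hold for that pair of probe sets. An exact permutation test of the F statistic over all 1680 assignments of the 9 arrays was used, with a smallest possible p of 0.00357 and adjustment over the 3 pairs. It tests the 3 cultures together, so its p does not say which culture differs from which. Aldoc minus Aldoa was -1.68, -2.89 and -2.12 in TMS, against -5.12, -5.04 and -5.16 in diffMMS and -4.89, -4.93 and -4.94 in MMS. TMS was apart from both other cultures, by 2.87 against diffMMS and 2.69 against MMS, and the means differed by -0.18 in diffMMS against MMS (exact permutation p = 0.00357, adjusted p = 0.0107).

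Pfkp minus Pfkl was -2.02, -1.35 and -1.14 in TMS, -1.95, -2.14 and -2.33 in diffMMS, and -0.46, -0.07 and 0.14 in MMS. MMS was apart from both, with differences of means of -1.37 in TMS against MMS and -2.01 in diffMMS against MMS (exact permutation p = 0.00714, adjusted p = 0.0107). The means differed by 0.64 in TMS against diffMMS, where the ranges overlapped. Hk2 minus Hk1 averaged -1.41 ± 0.247 in TMS, -1.52 ± 0.260 in diffMMS and -1.34 ± 0.154 in MMS (SD, n = 3 each, exact permutation p = 0.611). The hexokinase ranges overlapped in all 3 cultures. When arrays were left out in turn the phosphofructokinase p lay between 0.00357 and 0.0143 in exact permutation tests.

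**Figure D3:**
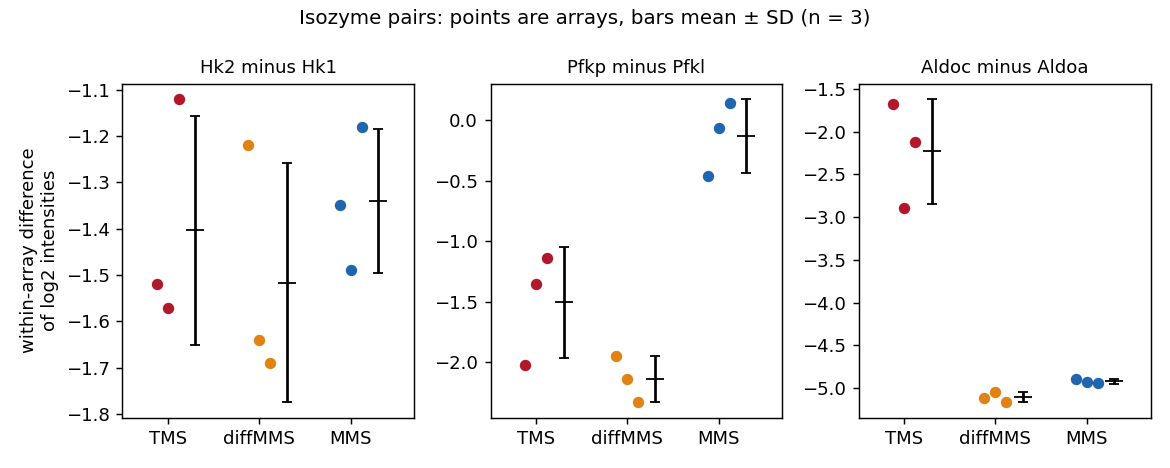
Difference of log2 levels between the isozymes of the hexokinase, phosphofructokinase and aldolase steps on each array, with the mean ± SD of each group (n = 3) beside its points. Aldoc minus Aldoa ran from -2.89 to -1.68 in TMS and was -4.89 or below in the other cultures, and Pfkp minus Pfkl was between -0.46 and 0.14 only in MMS.

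The TMS arrays had the widest spread in these genes. The median SD of the 9 members was 0.266 in TMS, 0.0855 in diffMMS and 0.0793 in MMS, where the median SD of all probe sets was 0.0937, 0.0879 and 0.0656. Aldoc had the widest TMS spread (SD 0.632, n = 3) and Aldoa the narrowest (SD 0.0439). TMS array 1101A was the lowest of its group for 5 of the 9 genes and the highest for 1, Hk2. Among MMS, 859A was lowest for 5 genes, and among diffMMS, 862A was highest for 6.

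The scaling of the arrays touched the bright members. Among the 1132 brightest probe sets, the top 5% of all, the median log2 fold change in diffMMS against MMS was -0.04 after quantile normalization, -0.24 with the values as deposited and -0.29 with each array centred on its median, while the median of all genes moved by at most 0.05. For TMS against MMS the 3 values were -0.01, -0.17 and -0.22. Aldoa, Pgk1 and Ldha, bright probe sets all, differed in diffMMS against MMS by 0.23, 0.33 and 0.17 as deposited and by 0.18, 0.28 and 0.12 after centring. Of these only Aldoa as deposited was called (adjusted p = 0.0404). For Pgam1 in TMS against MMS the sign turned, with 0.09 after quantile normalization, -0.04 as deposited and -0.08 after centring, and no call was made. Aldoc and Pfkl in TMS against MMS (2.95 to 2.99 and 1.15 to 1.27) and Pfkp in diffMMS against MMS (-0.56 to -0.45) were called under each scaling.

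**Figure D4:**
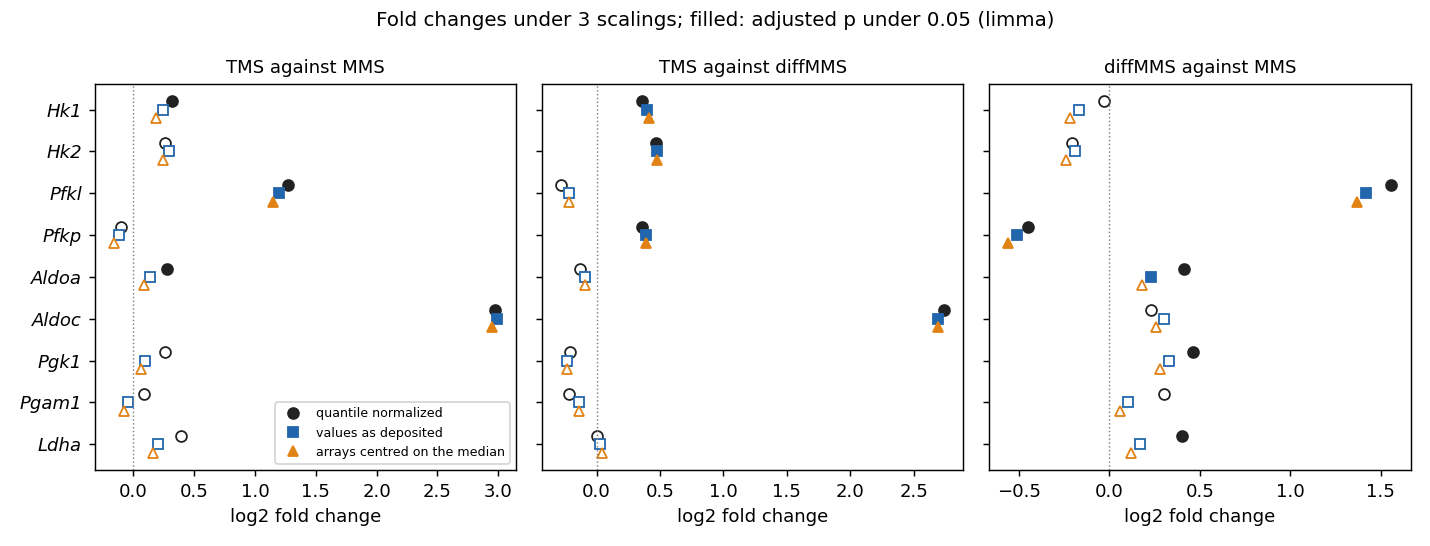
Log2 fold change of the 9 glycolytic genes under the 3 scalings (quantile normalized, as deposited, arrays centred on the median), 1 panel per comparison, with filled symbols where the adjusted p was under 0.05 (limma). Ldha stood at 0.40, 0.17 and 0.12 in diffMMS against MMS, whereas Pfkl stayed between 1.37 and 1.56.

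Of 18 other enzymes and isozymes of the pathway, 13 were measured. In TMS against MMS 2 were higher and 1 was lower. Pkm, the pyruvate kinase of most tissues and tumors, was higher by 0.31 (adjusted p = 0.0144), Ldhb by 0.31 (adjusted p = 0.041), and Eno2, the neuronal enolase, was lower at -0.53 (adjusted p = 0.0164). With the values as deposited and with centred arrays neither Pkm nor Ldhb was called, and 1 gene was lower. In TMS against diffMMS 1 was higher, Pkm by 0.38 (adjusted p = 0.00213), and 2 were lower, Eno3 at -0.30 (adjusted p = 0.0477) and Pgam2 at -0.25 (adjusted p = 0.0425), both muscle isozymes. With the values as deposited 0 genes of the list were lower there, and with centred arrays 1 was. In diffMMS against MMS 6 were higher, led by Tpi1 at 0.45 (adjusted p = 0.0279) with Pfkm and the sperm enzyme Gapdhs at 0.33 each, and 1 was lower, Eno2 at -0.59 (adjusted p = 0.0038). With centred arrays that last count was 1 higher and 2 lower, and with the values as deposited 4 and 2.

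Transport of glucose and lactate was read by 9 genes, all measured. Slc2a1, the widespread glucose transporter, had 8.53, 8.63 and 8.62 in TMS, 8.24, 8.13 and 8.04 in diffMMS, and 7.97, 7.95 and 7.99 in MMS. It was higher in TMS by 0.62 against MMS (adjusted p = 2.36e-04) and by 0.46 against diffMMS (adjusted p = 7.55e-04). Slc2a3, a high-affinity glucose transporter, was higher in TMS than in diffMMS by 1.33 (adjusted p = 7.77e-05) and lower in diffMMS than in MMS at -0.86. Slc16a1, a lactate carrier, was lower in TMS at -0.80 against MMS and -0.45 against diffMMS. Slc16a3, the lactate exporter of glycolytic cells, was higher in diffMMS than in MMS by 1.28 (adjusted p = 0.00235), where Slc16a1 was lower at -0.35 (adjusted p = 0.0285). Bsg, the partner protein of both lactate carriers, was higher in diffMMS by 0.51 (adjusted p = 1.75e-04) and in TMS by 0.35 (adjusted p = 0.00542), each against MMS. In all, 2 transport genes were higher and 1 lower in TMS against MMS, 2 and 1 in TMS against diffMMS, and 3 and 2 in diffMMS against MMS. With centred arrays 1 gene was higher in TMS against MMS and 1 in diffMMS against MMS.

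Regulators of glycolytic flux were mostly higher in diffMMS. Of 10 measured, 7 were higher and 0 lower in diffMMS against MMS (7 and 0 at an unadjusted p under 0.05 in limma), and the counts were the same with the other scalings. Hif1a, the oxygen-regulated subunit of the hypoxia-inducible factor, led with 1.12 (adjusted p = 4.88e-04). Pdk1, a kinase that inhibits pyruvate dehydrogenase, followed with 0.67 (adjusted p = 0.00155). In TMS against diffMMS 6 regulators were lower, Hif1a at -1.81 and Pdk1 at -0.40, and 0 were higher (0 at an unadjusted p under 0.05). In TMS against MMS Hif1a alone was called, lower at -0.69 (adjusted p = 0.0218), while 3 were higher and 2 lower at an unadjusted p under 0.05.

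Targets of the hypoxia response outside glycolysis moved in both TMS and diffMMS against MMS. Of 13 measured, 8 were higher in TMS than in MMS and 0 lower (9 and 0 at an unadjusted p under 0.05 in limma), with a median of 0.52. Egln3, an oxygen sensor, led with 1.71 (adjusted p = 7.69e-05), followed by Ddit4, an inhibitor of the growth kinase mTOR, with 1.50 (adjusted p = 0.00172). In diffMMS against MMS 9 were higher and 1 lower, with a median of 0.73. There the leading genes were Adm, a vasodilator peptide, at 4.17 (adjusted p = 2.78e-09), and P4ha2, a collagen-modifying enzyme, at 1.74 (adjusted p = 1.9e-08), while Kdm3a, a histone demethylase, was lower at -0.36. Between TMS and diffMMS the list divided, with 3 higher (Egln3 at 1.39 and Car9 at 0.47 leading) and 4 lower (Adm at -3.61 and P4ha2 at -1.37 leading). Hif1a transcript had means of 7.96 in TMS, 9.76 in diffMMS and 8.64 in MMS. Egln3 was highest in TMS (mean 7.35, with 5.96 in diffMMS and 5.64 in MMS). Adm was highest in diffMMS (mean 9.52, with 5.91 in TMS and 5.36 in MMS). A link between Hif1a transcript and the genes of this list was not tested.

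Neighbouring pathways differed chiefly between diffMMS and the spheres. Of 23 genes of pyruvate dehydrogenase and the citrate cycle, 12 were lower and 1 was higher in diffMMS against MMS, with Idh3a at -0.68, Idh2 at -0.63 and Idh1, a cytosolic enzyme, at 0.29. The lower count was 17 as deposited and 18 with centred arrays, where Idh1 was no longer called. In TMS against diffMMS 6 were higher, led by Idh3a at 0.50 and Mdh2 at 0.46, and 2 were lower, Idh1 at -0.54 and Dlat at -0.26, and in TMS against MMS 2 were lower, Idh2 at -0.50 and Sdhd at -0.29. Of 7 pentose phosphate genes, 4 were higher and 1 was lower in TMS against diffMMS, led by Tkt, the transketolase, at 0.75 (adjusted p = 1.53e-05) and Pgd at 0.56, with H6pd lower at -0.70. In diffMMS against MMS 1 was higher, H6pd at 0.80, and 4 were lower, among them Pgd at -0.60 and Rpia at -0.54. In TMS against MMS Tkt was higher by 0.41 and Rpia was lower at -0.27, and with the other scalings the Tkt call ended. Among 7 gluconeogenic genes Pck2, a mitochondrial enzyme, was higher in diffMMS than in MMS by 0.92 (adjusted p = 3.17e-06) and lower in TMS than in diffMMS at -0.71, and G6pc3 moved in the same directions, at 0.36 and -0.37. With each of the other scalings only 1 gluconeogenic gene was higher in diffMMS against MMS, and 2 were lower in TMS against diffMMS.

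**Figure D5:**
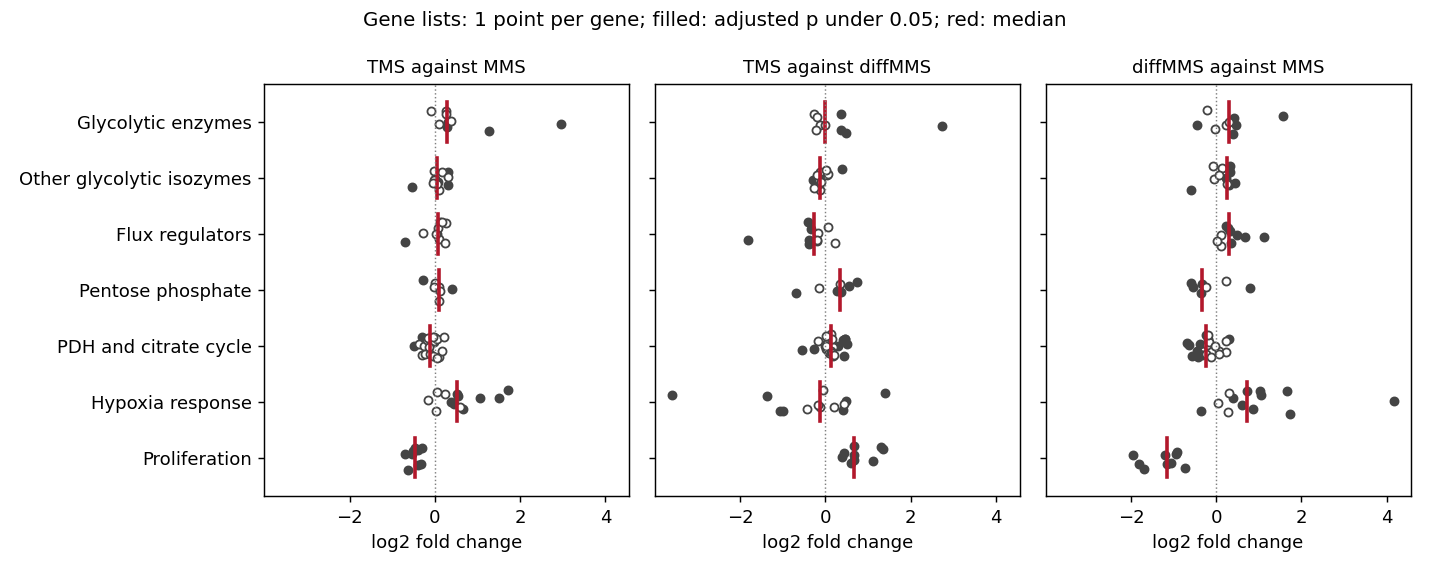
Log2 fold change of each measured gene, 1 point per gene, in the glycolytic members and 6 related lists, for the 3 comparisons, with filled points where the adjusted p was under 0.05 (limma) and a red line at each list's median. The hypoxia list had 8 of 13 genes higher in TMS and 9 of 13 higher in diffMMS against MMS, and the citrate cycle list had 12 of 23 lower in diffMMS against MMS.

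Markers of dividing cells and of cell types also differed between the cultures. All 9 proliferation genes measured were lower in TMS than in MMS, higher in TMS than in diffMMS and lower in diffMMS than in MMS. Their median log2 fold changes were -0.47, 0.67 and -1.16, beside 0.28, 0.00 and 0.30 for the glycolytic members. The 5 luminal epithelial markers had a summed intensity of 2918 to 5033 in TMS, 285.9 to 338.8 in diffMMS and 277.3 to 372.1 in MMS, and 4 were higher in TMS against each. Cdh1, the epithelial cadherin, was at 5.36 to 6.60 in TMS, 4.06 to 4.23 in diffMMS and 4.05 to 4.28 in MMS, the last 2 close to the lowest value on the arrays, 3.88. Epcam, another defining marker of epithelium, averaged 9.87 in TMS and was at 5.93 to 6.28 in diffMMS and 6.10 to 6.46 in MMS. The 6 fibroblast markers summed to 25870 to 29420 in TMS, 35420 to 36870 in diffMMS and 30710 to 31760 in MMS. In diffMMS against MMS 3 of them were higher, Pdgfra at 1.04 and Col1a1 at 0.87 leading, and 2 were lower, Lum at -1.84 and Dcn at -0.52, while in TMS against MMS 1 was lower, Col3a1 at -0.42. The 5 basal markers summed to 606.8 to 742.2 in TMS, 2231 to 3220 in diffMMS and 622.2 to 697.6 in MMS. That sum followed Acta2, the smooth muscle actin, which was higher in diffMMS than in MMS by 2.59. Trp63 was higher there by 0.32, and Krt5, Krt14 and Krt17 were not called (0.19, -0.01 and 0.04). In TMS against diffMMS Krt14 was higher by 1.23 (limma adjusted p = 0.0348), with 5.83, 6.56 and 8.03 on the TMS arrays. Krt5 and Acta2 were lower in that comparison, at -0.28 and -2.77, and 0 basal markers were called in TMS against MMS. The 6 macrophage markers summed to 1190 to 1940 in TMS, 597.5 to 914.7 in diffMMS and 520.8 to 578.6 in MMS. In TMS 3 of them were higher and 0 lower against each other culture, with Lyz2 at 2.29 and Cd14 at 1.41 leading against MMS. In diffMMS against MMS 2 were higher and 1 was lower. Ptprc, the marker of all white blood cells, was not called (means 5.01 in TMS, 4.91 in diffMMS and 4.86 in MMS). The 5 striated muscle markers summed to 191.7 to 212.2 in TMS, 210.7 to 243.6 in diffMMS and 194.2 to 205.6 in MMS. Of 4 endothelial markers, 3 were lower in TMS against MMS and 2 in TMS against diffMMS, and 0 were higher. With the values as deposited these lower counts were 2 and 1. Of 3 adipocyte markers measured, 1 was lower in TMS against diffMMS and 1 was higher in diffMMS against MMS. The share of cell makeup or proliferation in the levels of Aldoc, Pfkl and the other members was not tested.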

How the data were processed

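The authors deposited 1 table of linear intensity values for 22690 probe sets on 9 MOE430A arrays, already summarised and scaled. The scaling method is not given in the sources used here, beyond the naming of GeneSpring in the methods. To each value 8.67 was added (10% of the median of all values, 86.7). The log2 values were then quantile normalized, since the arrays' quartiles differed by up to 0.164. After that the 64 control probe sets were left out, and 22626 probe sets were kept. All 9 arrays entered 1 fit in limma 3.58.1 (R 4.3.3) with group means, an intensity trend in eBayes, 6 residual degrees of freedom before moderation, two-sided moderated tests and Benjamini-Hochberg adjustment over all probe sets. The threshold of the adjusted p was 0.05.

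Symbols came from the platform's annotation, and 20380 probe sets with exactly 1 symbol were used. A gene was counted by its probe set of the highest mean. All probe sets of each member were described. From the metabolic and hypoxia lists the 2 largest rises and falls among called genes are named. The proliferation and cell type lists are given by counts or sums, and the genes named from them were chosen after their values were seen. The members, lists and tests were chosen with earlier results of these data known. The number of arrays limits the precision, and intensities give no counting error. Control probe sets for the 3′ and 5′ ends of Gapdh and beta-actin gave log2 differences of -0.26 to -0.11 and 0.28 to 0.66 over the 9 arrays. The fit was tested on simulated data. Hypoxia motifs were searched with Python 3.11.15. Alternatives covered the scaling, offset, trend, weights, filter, threshold, choice of probe set, the groups fitted and each array left out.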

Additional observations from a re-analysis of the deposited data

How the results depend on the processing

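Over all alternatives, results of single member probe sets stayed called or uncalled 1012 times, lost the call 74 times and gained it 18 times. None changed sign while called, but some uncalled differences did, such as that of Pgam1 in TMS against MMS. With the values as deposited, 2 members were higher in TMS against MMS and 2 in diffMMS against MMS. With arrays centred on their medians these counts were 2 and 1. Centring also moved the split of all called probe sets, in TMS against MMS to 1225 higher and 2366 lower, beside 1471 and 1760 after quantile normalization, and in diffMMS against MMS to 2903 and 4673, beside 3643 and 3846. At a threshold of 0.01 the members higher were 2 (TMS against MMS), 1 (TMS against diffMMS) and 2 (diffMMS against MMS), and all probe sets called were 1549, 3166 and 4456, beside 3231, 5353 and 7489 at 0.05. The main fit shares 1 estimate of the spread among all 3 groups. When the fit held only the 2 groups compared, the members higher were 3 (TMS against MMS), 3 (TMS against diffMMS) and 6 (diffMMS against MMS). All probe sets called were then 2916, 4116 and 8391. Array weights raised the 3231 probe sets of TMS against MMS to 5860. Averaging the probe sets of each gene gave 1927 genes in that comparison, 881 higher and 1046 lower. Counted by the probe set of the highest mean, 771 genes were higher and 885 lower there.

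When each array was left out in turn, members higher ranged over 2 to 6 in TMS against MMS, 2 to 4 in TMS against diffMMS and 2 to 5 in diffMMS against MMS. Members lower ranged over 0 to 0, 0 to 1 and 1 to 1. All probe sets called ranged over 1863 to 4088, 4313 to 5626 and 5218 to 8347, and in TMS against MMS the count was 1863 without MMS array 859A and 1907 without 860A. The exact permutation p of the isozyme pairs ranged over 0.236 to 0.882 (Hk2 and Hk1), 0.00357 to 0.0143 (Pfkp and Pfkl) and 0.00357 to 0.00357 (Aldoc and Aldoa). The last is the smallest p this test can give in every run and says nothing about stability. No paired analysis was possible because the labels give array codes and no replicate numbers shared between groups. Low brightness limits what the dim Aldoc probe set can show.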

Other observations

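Gapdh, the glycolytic dehydrogenase between the aldolase and Pgk1 steps, had no probe set of its own symbol and entered no comparison. Its control probe set at the 3′ end had log2 levels of 11.88, 11.92 and 11.68 in TMS, 11.40, 11.65 and 11.53 in diffMMS, and 11.72, 11.55 and 11.68 in MMS. The lowest TMS array was above the highest diffMMS array and level with the MMS arrays 858A and 860A. As for Pgk1 and Ldha, TMS array 1101A was the lowest of its group. No test was made on this control.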
